A study of Cavia porcellus with 10 samples.

Results

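Crystallin and lens fibre transcripts were followed in RNA-seq counts from guinea pig sclera. The set held 10 genes, chosen by symbol, of 17642 lines with a symbol in the count table. These were 2 alpha crystallins (Cryaa, CRYAB), 5 beta crystallins (Cryba1, CRYBA4, CRYBB1, CRYBB2, Crybb3), and 3 genes of the lens fibre cell skeleton and membrane (BFSP1, BFSP2, Lim2). Each symbol stood on a single line, so no choice between lines by mean count was needed.

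The myopia group was 5 scleral libraries from male guinea pigs (Cavia porcellus), 2 to 3 weeks of age, fitted with lenses on both eyes to induce myopia. The control group was 5 scleral libraries from untreated males of the same age, and each library was made from 1 eye. The sources do not give the strain, the length of lens wear or which eyes share an animal. The p-values therefore cover only the spread among these 10 libraries, and that spread may be technical. Library totals lay between 32309258 and 35430797 counts. A limit of 3 counts, set as the floor and not a hard ceiling for a count of 0, equalled 0.0735 to 0.118 CPM across libraries. CPM is the number of reads of a gene relative to the TMM-scaled library size. The limit covers counting error only.

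Crystallins are the soluble proteins that fill the fibre cells of the eye lens and keep it clear. Alpha crystallins are small heat shock proteins that hold unfolded proteins in solution, and CRYAB is also abundant outside the lens, in muscle and glia. Beta crystallins are structural proteins of the lens, and transcripts of several crystallins are also known from the retina. The lens in the name lens-induced myopia is the optical lens worn before the eye.

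Of the 10 genes, 9 were high enough to test and all 9 were lower in myopic sclera, while Cryba1 was too low to test. Of all genes tested 71.9% passed, made up of 35.1% lower and 36.9% higher in myopia, so a call by itself is common in these data. The median log2 fold change, myopia over control, was -1.94 for the 9 lens genes tested, against 0.03 for all genes tested. The filter asked for 5 libraries over a cutoff of 0.304 CPM. CRYBB2, Crybb3 and Lim2 reached it in 1 myopia library, CRYBA4 and CRYBB1 in 3, and all of these in the 5 control libraries. These 5 genes passed the filter through control, so neither that count nor that median supports a fall of the set, and their fold changes and p-values are given as descriptions. The groups did not overlap for CRYAB, BFSP1 and BFSP2, where 28% of all genes tested had every myopia library below every control library. They did not overlap for Crybb3 either, but it passed the filter through control, so that share is no comparison for it.

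**Figure D1:**
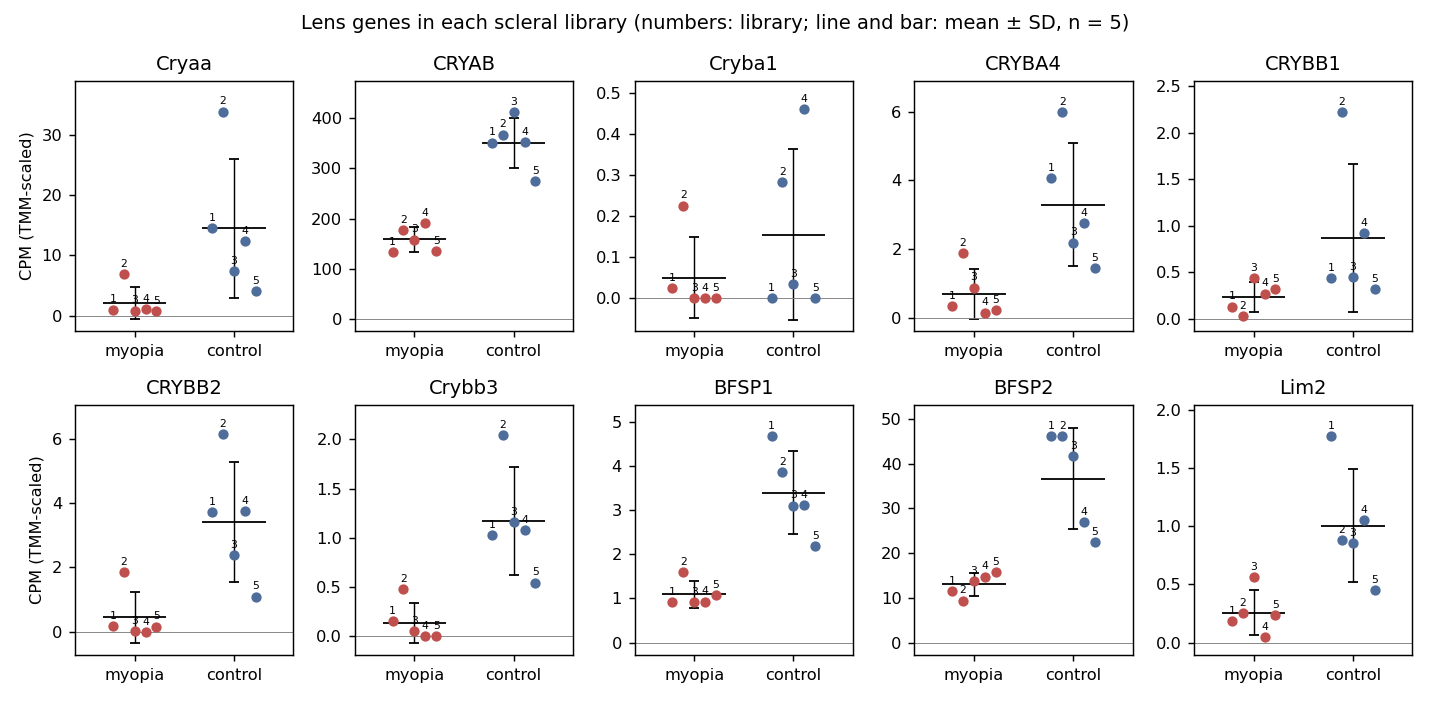
Level of each lens gene in CPM (vertical axis, linear, a separate scale for each gene) in the 5 myopia and 5 control libraries, numbered, with the mean and SD. CRYAB, Crybb3, BFSP1 and BFSP2 show no overlap between the groups, and myopia 2 stands above the other myopia libraries for Cryaa and CRYBB2.

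Cryaa, the alpha crystallin that is largely restricted to the lens, stood at 0.987, 6.85, 0.847, 1.08 and 0.737 CPM in myopia libraries 1 to 5. In control libraries 1 to 5 it stood at 14.6, 33.9, 7.41, 12.4 and 4.11 CPM. The groups overlapped because myopia 2 lay above control 5, while the other 4 myopia libraries lay below every control library. The mean was 2.10 ± 2.66 CPM in myopia and 14.5 ± 11.6 CPM in control (SD, n = 5 each), a log2 fold change of -2.79 ± 0.72 (SE; edgeR quasi-likelihood test, adjusted p = 0.0038). Without myopia 2 the log2 fold change was -3.98, and without control 2 it was -2.20 (edgeR, adjusted p = 5.45e-05 and 0.0122). The alternatives of a tested member are the 23 alternative fits, with adjusted p, and an exact two-sided permutation test over samples, with unadjusted p. Over all alternatives of this gene, p ran from 2.31e-05 (adjusted, from a fit) to 0.0159 (unadjusted, from the permutation test).

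CRYAB, the small heat shock protein expressed in many tissues, behaved more evenly. It stood at 132, 176, 158, 190.3 and 135 CPM in myopia libraries 1 to 5, against 351, 367, 412, 352 and 274 CPM in control libraries 1 to 5. Every myopia library lay below every control library. The mean was 158 ± 25.4 CPM in myopia and 351 ± 49.95 CPM in control (SD, n = 5 each), a log2 fold change of -1.15 ± 0.13 (SE; edgeR, adjusted p = 4.84e-06). The libraries hold 5096 to 7768 reads of CRYAB in myopia and 8526 to 12078 in control, so counting error is small beside the spread between libraries. CRYAB held 88.0% to 91.7% of the reads of the 10 genes in myopia libraries and 78.3% to 89.4% in control libraries, counts that are not scaled by gene length. In bulk tissue, fewer cells that carry a transcript and less of it per cell cannot be told apart.

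The beta crystallins were measured from few reads. CRYBA4, an acidic beta crystallin, had 13, 67, 34, 6 and 8 reads in myopia libraries 1 to 5 and 103, 170, 64, 84 and 45 in control libraries 1 to 5. CRYBB2, a basic beta crystallin of the mature lens, had 7, 66, 1, 0 and 6 reads in the myopia libraries and 94, 174, 70, 114 and 34 in the control libraries. In both genes myopia 2 was the highest myopia library and lay above control 5, the lowest control library.

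CRYBA4 averaged 0.691 ± 0.728 CPM in myopia and 3.29 ± 1.79 CPM in control (SD, n = 5 each), a log2 fold change of -2.25 ± 0.63 (SE; edgeR, adjusted p = 0.0058). CRYBB2 averaged 0.445 ± 0.795 CPM in myopia and 3.41 ± 1.87 CPM in control, a log2 fold change of -2.96 ± 0.93 (edgeR, adjusted p = 0.0121). Without myopia 2 these log2 fold changes became -3.06 and -5.18 (edgeR, adjusted p = 0.000341 and 3.71e-05). Over all alternatives, p ran from 0.000223 to 0.0171 for CRYBA4 and from 3.71e-05 to 0.0347 for CRYBB2. For CRYBB2, 2 myopia libraries were at or under the limit of 3 reads.

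Crybb3, another basic beta crystallin, had 6, 17, 2, 0 and 0 reads in myopia libraries 1 to 5 and 26, 58, 34, 33 and 17 in control libraries 1 to 5. The groups did not overlap in CPM, at 0 to 0.479 in myopia and 0.546 to 2.04 in control, although 3 myopia libraries were at or under the limit of 3 reads. Its log2 fold change was -3.10 ± 0.78 (SE, n = 5 each; edgeR, adjusted p = 0.00274), and -4.41 without myopia 2 (edgeR, adjusted p = 0.000216). Over all alternatives, p ran from 0.000216 to 0.00929.

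CRYBB1, a basic beta crystallin with a long terminal extension, passed the test, but the call ended without single libraries. It had 5, 1, 17, 11 and 12 reads in myopia libraries 1 to 5 and 11, 63, 13, 28 and 10 in control libraries 1 to 5. The ranges in CPM overlapped, at 0.0282 to 0.436 in myopia and 0.321 to 2.22 in control, and myopia 2 was here the lowest library of all. The log2 fold change was -1.85 ± 0.65 (SE, n = 5 each; edgeR, adjusted p = 0.0206). Without control 2 it was -1.14 (adjusted p = 0.11), and without myopia 1 it was -1.70 (adjusted p = 0.0501). With scaling by total count it was -1.37 (adjusted p = 0.0785), and p ran from 0.0101 to 0.481 over all alternatives of this gene. With the replicate number as a block it was -1.59 (adjusted p = 0.0958).

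Cryba1, which encodes an acidic pair of beta crystallins, was too low to measure. It had 1, 8, 0, 0 and 0 reads in myopia libraries 1 to 5 and 0, 8, 1, 14 and 0 in control libraries 1 to 5. The reads fell in myopia 2, control 2 and control 4, while the other 7 libraries were at or under the limit of 3 reads. No fold change is given. In an exact two-sided permutation test over samples on log2 CPM, p was 0.325, where the smallest p that 5 against 5 can give is 0.00794.

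Cryaa and the beta crystallins were then read together by library, a grouping made after the values were seen and not tested. Control 2 was the highest library of all for Cryaa, CRYBA4, CRYBB1, CRYBB2 and Crybb3, while Cryba1 had most reads in control 4. BFSP2 was at nearly the same level in control 2 and control 1, at 46.3 and 46.1 CPM. Myopia 2 was the highest myopia library for Cryaa, Cryba1, CRYBA4, CRYBB2 and Crybb3, with CRYBB1 the exception. Summed over these 6 genes, the level was 1.82, 11.3, 2.23, 1.49 and 1.42 CPM in myopia libraries 1 to 5 and 23.8, 50.6, 13.6, 21.4 and 7.52 CPM in control libraries 1 to 5.

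The share of Cryaa in that sum was taken library by library. Cryaa held 54.3%, 60.4%, 37.9%, 72.1% and 51.9% of the reads of the 6 genes in myopia libraries 1 to 5, and 54.4% to 67.0% in control libraries. The lowest share, in myopia 3, has an exact 95% interval of 27.7% to 49.0%. The highest, in myopia 4, has an interval of 59.2% to 82.9%. For myopia 2, with 402 such reads, the interval was 55.5% to 65.3%, within the range of the shares in control libraries. These intervals cover counting error only.

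**Figure D2:**
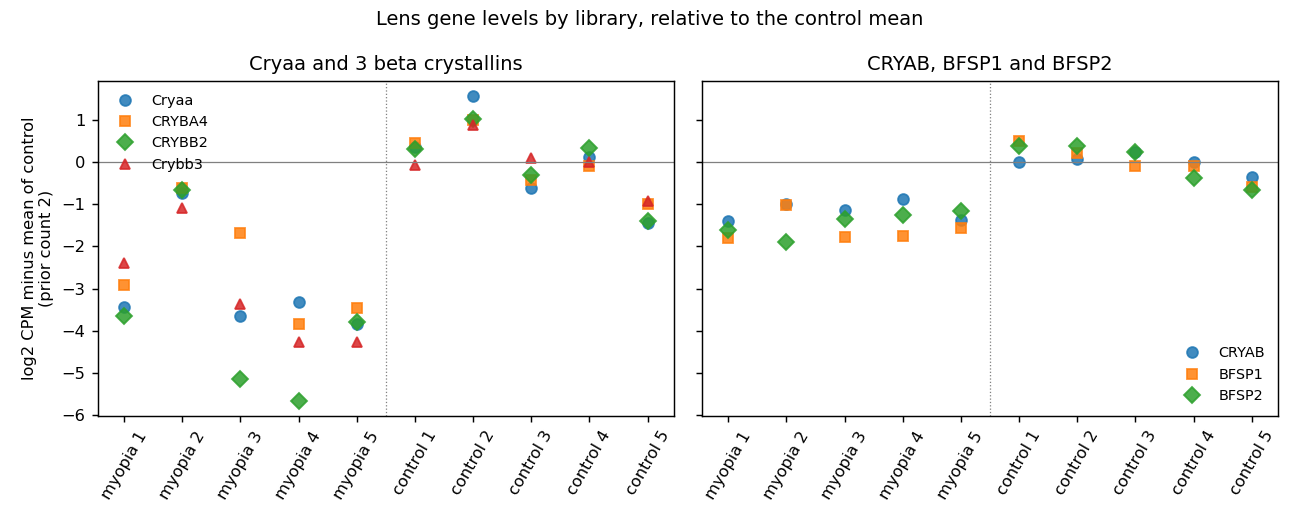
Log2 CPM of each gene minus its mean over the control libraries (vertical axis, prior count 2), by library, for Cryaa, CRYBA4, CRYBB2 and Crybb3 on the left and CRYAB, BFSP1 and BFSP2 on the right. On the left, myopia 2 lies near the control libraries and control 2 highest, while on the right all 5 myopia libraries lie below all control libraries. Cryba1, CRYBB1 and Lim2 are not shown, and CRYBB1 and Lim2 depart from these patterns. For CRYBB1 myopia 2 was the lowest library, and for Lim2 the groups overlapped.

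BFSP1 and BFSP2 encode filensin and phakinin, which together build the beaded filaments of lens fibre cells. BFSP2 stood at 11.5, 9.38, 13.8, 14.7 and 15.7 CPM in myopia libraries 1 to 5 and at 46.1, 46.3, 41.7, 27.0 and 22.4 CPM in control libraries 1 to 5. The groups did not overlap, and control 4 and 5 were the control libraries nearest to myopia. BFSP2 averaged 13.02 ± 2.56 CPM in myopia and 36.7 ± 11.2 CPM in control (SD, n = 5 each), a log2 fold change of -1.49 ± 0.21 (SE; edgeR, adjusted p = 3.59e-05).

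BFSP1 stood at 0.909, 1.61, 0.924, 0.931 and 1.08 CPM in myopia libraries 1 to 5 and at 4.69, 3.88, 3.11, 3.12 and 2.18 CPM in control libraries 1 to 5. Again no myopia library reached the lowest control library, control 5. The log2 fold change was -1.64 ± 0.27 (SE, n = 5 each; edgeR, adjusted p = 0.000112). Of the myopia libraries, myopia 2 was the lowest for BFSP2 and the highest for BFSP1.

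Lim2 encodes an integral membrane protein of lens fibre junctions. It had 7, 9, 22, 2 and 9 reads in myopia libraries 1 to 5 and 45, 25, 25, 32 and 14 in control libraries 1 to 5. Myopia 3, at 0.565 CPM, lay above control 5, at 0.450 CPM, and the other myopia libraries lay below all control libraries. The log2 fold change was -1.94 ± 0.53 (SE, n = 5 each; edgeR, adjusted p = 0.00505). In the guinea pig gene table a long non-coding RNA gene overlaps Lim2, and another overlaps Crybb3. Whether strand was used in counting is not given, so reads of these overlapping genes cannot be told apart.

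**Figure D3:**
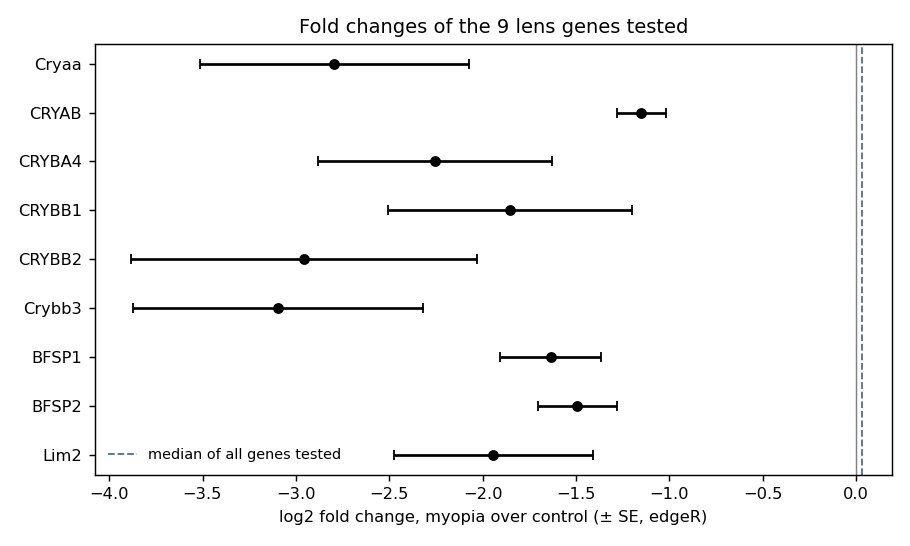
Log2 fold change of myopia over control (horizontal axis, points with SE bars, edgeR, n = 5 libraries per group) for the 9 lens genes tested, with the median of all genes tested as a dashed line at 0.03. CRYAB has the narrowest bar, at -1.15 ± 0.13, and CRYBB2 the widest, at -2.96 ± 0.93.

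Other lens fibre genes were mostly near the floor. Of 18 listed, 14 were in the table and 5 were tested, with 1 higher, 0 lower and 4 not passed. Among all genes tested, 36.9% were higher and 35.1% lower in myopia. With no filter 13 were tested, with 1 higher and 3 lower. Without control 3 or without control 4 there was 1 higher and 1 lower, and without control 5 there were 1 higher and 2 lower. MIP, the main water channel protein of fibre cells, had at most 5 reads in any library. GJA3, a gap junction gene of the lens, had 1 read in all 10 libraries together. DNASE2B, the nuclease that clears fibre cell nuclei, had at most 2 reads in any library. These 3 genes were thus not detectable or barely so in either group.

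CRYGS, the crystallin of the lens cortex, averaged 1.38 CPM in myopia and 2.66 CPM in control, with a log2 fold change of -0.94 ± 0.51 (SE, n = 5 each) that did not pass (edgeR, adjusted p = 0.114). It passed without control 5 (-1.18, adjusted p = 0.028, within 0.028 to 0.418 over its alternatives). Crygn did not pass either (-0.56 ± 0.31; edgeR, adjusted p = 0.121), though it passed without control 4 (-0.70, adjusted p = 0.0483, within 0.0483 to 0.788 over its alternatives). TDRD7, an RNA granule protein needed in the lens and expressed widely, averaged 44.6 ± 4.21 CPM in myopia and 29.7 ± 5.17 CPM in control (SD, n = 5 each). Its log2 fold change of 0.59 ± 0.12 passed (SE; edgeR, adjusted p = 0.000658), in the direction opposite to the 9 members tested.

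The gamma crystallins Cryga, Crygb and Crygc, named after their values were seen, were too low to test under the filter. They are related neighbours in mammals, and whether reads were split between them was not tested. Crygc had 0 reads in all 5 myopia libraries and 5, 51, 23, 44 and 2 in control libraries 1 to 5. The mean of Crygc in control was 0.857 ± 0.758 CPM (SD, n = 5), 10.9-fold the mean CPM of the 3-read limit in myopia libraries (0.0784). That ratio takes the control mean without its spread, so it is not a lower bound on the fold change. Control 5 was itself under the limit. Crygb had 0, 4, 0, 0 and 0 reads in myopia libraries 1 to 5 and 6, 88, 10, 51 and 2 in control libraries 1 to 5. Summed over the 3 genes, control 2 and control 4 were highest, at 6.55 and 4.33 CPM, control 5 was at 0.161 CPM, and the myopia libraries lay at 0 to 0.113 CPM.

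Enzyme crystallins are metabolic enzymes that some species use as lens proteins. CRYZ (zeta crystallin), a quinone reductase that is a main lens protein of the guinea pig, averaged 38.1 ± 2.59 CPM in myopia and 31.5 ± 3.03 CPM in control (SD, n = 5 each). It rose, with a log2 fold change of 0.27 ± 0.09 (SE; edgeR, adjusted p = 0.0147), and control 5 overlapped the myopia libraries. Over its alternatives, p ran from 0.000115 to 0.116, and the call ended without control 2, control 4 and myopia 2 together (0.25). The symbol stands on 2 lines, and the line with the higher mean was used. Crym (mu crystallin), which binds thyroid hormone, fell, with 4.72 ± 1.62 CPM in myopia and 10.7 ± 2.51 CPM in control and a log2 fold change of -1.18 ± 0.25 (edgeR, adjusted p = 0.000708). CRYL1 (lambda crystallin), a sugar dehydrogenase, had a log2 fold change of -0.46 ± 0.10 (edgeR, adjusted p = 0.000717), which was -0.000224 with scaling by total count (adjusted p = 0.998, within 1.52e-05 to 0.998 over its alternatives).

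Among lens transcription factors, 10 of 12 were tested, and 3 rose, 0 fell and 7 did not pass. Of all genes tested, 36.9% were higher in myopia. EYA1, a coactivator of eye development, averaged 13.6 ± 3.88 CPM in myopia and 6.03 ± 2.49 CPM in control (SD, n = 5 each), a log2 fold change of 1.17 ± 0.28 (SE; edgeR, adjusted p = 0.00184). PROX1, the homeodomain factor of fibre elongation and of lymphatic vessels, averaged 4.88 ± 1.36 CPM in myopia and 2.01 ± 0.963 CPM in control, a log2 fold change of 1.28 ± 0.32 (edgeR, adjusted p = 0.00261). TFAP2A, a surface ectoderm factor, had a log2 fold change of 0.32 ± 0.12 (edgeR, adjusted p = 0.0338). That call ended without myopia 2, myopia 3, myopia 5 or control 4, with log2 fold changes of 0.27, 0.31, 0.29 and 0.28 (adjusted p = 0.0882, 0.058, 0.0759 and 0.0697), and under the block (0.31, adjusted p = 0.0729). Over all its alternatives, p ran from 0.000112 to 0.281. With scaling by total count 5 of the 10 rose and 0 fell, a scale on which more of all genes tested rose as well.

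A list of 10 small heat shock proteins and partners held, among others, the regulator Hsf1, the cochaperone BAG3, VIM and DES. In it 7 genes fell, 0 rose and 3 missed the threshold, where 35.1% of all genes tested were lower in myopia and 36.9% higher. The 3 were HSPB3, HSPB8 and Hsf1, with log2 fold changes of -0.59, -0.06 and 0.08. The median of the list was -0.79, against 0.03 for all genes tested. Hspb1, the widely expressed HSP27, averaged 171 ± 9.26 CPM in myopia and 447 ± 91.7 CPM in control (SD, n = 5 each), a log2 fold change of -1.39 ± 0.13 (SE; edgeR, adjusted p = 1.40e-06). HSPB2, which neighbours CRYAB in the guinea pig gene table, stood at 22.8 to 28.0 CPM in myopia and 40.8 to 85.9 CPM in control, a log2 fold change of -1.37 ± 0.17 (edgeR, adjusted p = 8.15e-06). HSPB7, a form of heart and skeletal muscle, had a log2 fold change of -1.34 ± 0.24 (edgeR, adjusted p = 0.000298).

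Intermediate filament partners of CRYAB were also lower on the TMM scale. VIM (vimentin) had a log2 fold change of -0.44 ± 0.12 (SE, n = 5 each; edgeR, adjusted p = 0.00504), which turned to 0.0093 with scaling by total count. DES (desmin), the muscle form, averaged 124 ± 31.5 CPM in myopia and 244 ± 77.5 CPM in control, a log2 fold change of -0.98 ± 0.23 (edgeR, adjusted p = 0.002). Its fall did not pass with scaling by total count (-0.52, adjusted p = 0.054, within 1.38e-05 to 0.054 over its alternatives). With that scaling 4 genes of the list fell and 1 rose.

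Markers of other tissues were read beside these values. The counts called in each list below stand beside 35.1% lower and 36.9% higher in myopia among all genes tested. Of 14 photoreceptor markers 13 were tested, and 6 fell and 1 rose, with a summed level of 71.3 to 261 CPM in myopia and 247 to 416 CPM in control. The libraries with the highest photoreceptor sums of their groups were myopia 3, myopia 5 and control 5, and Cryaa was lowest of each group in myopia 5 and control 5. Control 2, highest in Cryaa, had the next highest photoreceptor sum after control 5 (345 CPM) and the highest pigment epithelium sum of all (74.6 CPM), and myopia 2 had 83.8 and 51.9 CPM. Myopia 2, high in Cryaa, had the lowest summed optic nerve glia markers (2073 CPM) and Muller glia markers (2262 CPM) of the 10 libraries.

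Of 16 skeletal muscle markers 8 fell and 0 rose, against 35.1% lower and 36.9% higher among all genes tested. Their sum overlapped, at 2807 to 6162 CPM in myopia and 3767 to 9566 CPM in control. In myopia 2, the muscle sum was the highest of the myopia libraries, and in control 2 it was the lowest of the control libraries. Melanocyte markers (8 of 8 tested, 2 higher and 4 lower) summed to 54.7 to 220.3 CPM in myopia and 146 to 438 CPM in control. Schwann cell markers (5 of 5 tested, 2 higher and 3 lower) summed to 811 to 1376 CPM in myopia and 1449 to 2040 CPM in control, without overlap.

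Pigment epithelium markers (6 of 6 tested, 2 higher and 1 lower) summed to 33.8 to 70.1 CPM in myopia and 42.7 to 74.6 CPM in control. Muller glia markers (8 of 8 tested, 3 higher and 1 lower) reached 3809 CPM in myopia and lay at 3539 to 5779 CPM in control. Optic nerve glia markers (8 of 8 tested, 1 higher and 2 lower) reached 9463 CPM in myopia and lay at 4498 to 9082 CPM in control. Corneal epithelium markers (5 of 8 tested, 0 higher and 1 lower) summed to 5.19 to 7.65 CPM in myopia and 7.48 to 15.7 CPM in control. The scleral fibroblast markers that define the tissue (10 of 10 tested, 2 higher and 5 lower) summed to 73918 to 101904 CPM in myopia and 131129 to 166703 CPM in control. With scaling by total count, higher and lower calls numbered 1 and 4 for photoreceptor, 3 and 2 for skeletal muscle, 3 and 1 for melanocyte, 2 and 1 for Schwann cell and 4 and 4 for scleral fibroblast markers. On that scale they numbered 2 and 0 for pigment epithelium, 5 and 1 for Muller glia, 1 and 1 for optic nerve glia and 0 and 1 for corneal epithelium markers. Of all genes tested, too, more were called higher and fewer lower on that scale. The part of these other tissues in the lens gene values was not tested.

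**Figure D4:**
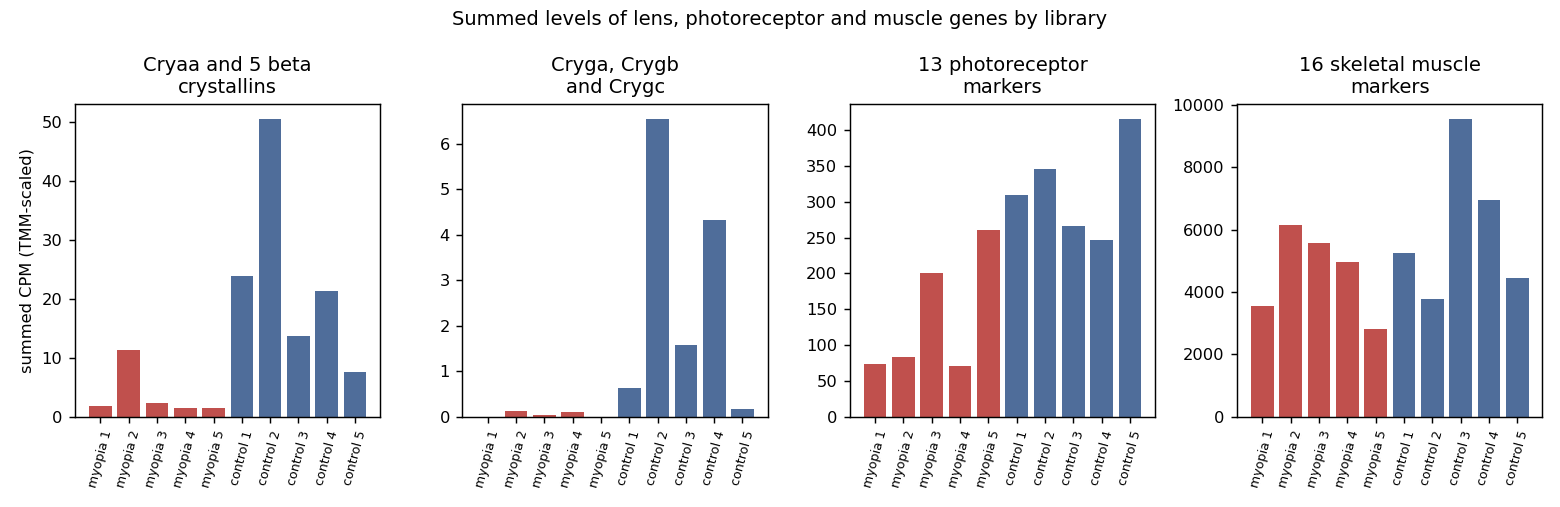
Summed CPM by library (vertical axis, linear, a separate scale per panel) of Cryaa with the 5 beta crystallins, of Cryga, Crygb and Crygc, of 13 photoreceptor markers and of 16 skeletal muscle markers. The crystallin sum is highest in control 2 (50.6 CPM) and, among myopia libraries, in myopia 2 (11.3 CPM), while the photoreceptor sum is highest in control 5 (416 CPM) and myopia 5 (261 CPM).

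The nearest profiles in the table were sought for the gene with most reads in each class, by the root mean square difference of centred log2 CPM over the 10 libraries. Of 12456 genes with a mean of at least 2 CPM, the nearest to CRYAB were Gmpr, Sars2, Pgm1, Coq8a and SCX, at differences of 0.11 to 0.13, where the median gene lay at 0.65. The nearest to BFSP2 were Slc25a47, ASF1B, PARK7, Dnlz and FXYD1, at 0.13 to 0.15, where the median gene lay at 0.84. The nearest to CRYBA4 were ISG15, Bst2, IRF7, Myl10 and OAS1, at 0.42 to 0.64, where the median gene lay at 1.6. CRYBA4 rests on 6 to 170 reads a library, and the search left out the lens genes and all genes under 2 CPM. The likeness includes the difference between the groups.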

How the data were processed

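The deposited table holds raw counts of reads per gene symbol, as whole numbers with 1 column per library. The submitters' processing notes name the mouse builds GRCm38 and mm10 with no role, while aligner, counter, annotation and strand use are unstated there, and no coordinate or length is given. All 10 members were found in a guinea pig gene table (mCavPor4.1), used for names and neighbours only.

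Lines without a symbol (437 of 18079, 0.751% to 1.69% of counts) were left out. The test used edgeR 4.0.16 (R 4.3.3) on the whole table, with TMM factors (1.11 to 1.25 in myopia, 0.777 to 0.968 in control), filterByExpr (minimum count 10, total 15; 14683 genes kept), a quasi-likelihood fit with robust dispersion and Benjamini-Hochberg adjustment at 0.05. SE is the log2 fold change divided by the root of the F statistic. Log2 CPM used a prior count of 2. Alternatives included DESeq2 1.42.0 and limma 3.58.1 and, for tested members, the exact permutation test with unadjusted p. The fit was tested on simulated data.

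Members and lists were chosen with earlier results of these data known. The text names all members, up to 3 genes of each list by smallest p and 3 by highest mean, and 5 nearest profiles; others were named after their values were seen. Markers of other tissues are mostly given as counts and sums. Replicates of a group all differed beyond counting noise, and no batch is labelled. Some genes of the lists are not reported here by name.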

Additional observations from a re-analysis of the deposited data

Results flagged for a closer look

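Myopia 2 stood far from the other 4 myopia libraries in 4 of the 10 genes, as the highest value with a gap of most of the group's range. It had 6.85 CPM of Cryaa, where the next myopia library had 1.08 CPM. It had 1.86 CPM of CRYBB2, where the next had 0.182 CPM, and 0.225 CPM of Cryba1, where the next had 0.0260 CPM. For BFSP1 it had 1.61 CPM, where the next had 1.08 CPM. The cutoff for the gap was 0.71 of the group's range, which flags about 1 in 20 groups of normally distributed values. That rate was not checked for low, skewed counts such as those of Cryba1 and CRYBB2. All 4 flags come from the same library, so they are not independent. No control library was flagged for any of the 10 genes.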

How the results depend on the processing

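Between 8 and 9 members passed as lower, and none as higher, under every one of the 23 alternative fits, and CRYBB1 was the member lost in each fit with 8. The other 8 tested members kept their direction and their call in all alternatives run. CRYBA4, CRYBB1, CRYBB2, Crybb3 and Lim2 passed the default filter through control, and 35.1% of all genes tested were lower in the main fit. The number of members called, repeated over the fits, therefore does not support a fall of the set. Scaling by total count alone moved the median log2 fold change of all genes tested from 0.03 to 0.47 and gave 7633 higher and 2751 lower genes, against 5412 and 5149 with TMM factors. On that scale CRYAB was at -0.69, Cryaa at -2.34 and BFSP2 at -1.01, all still past the test, while VIM turned to 0.0093 and Six3 to 0.16, from -0.29 (neither passed on that scale). The replicate block gave 8 members and 10103 genes, against 9 and 10561 without it. Same-numbered libraries did not deviate together (correlations of -0.13 to 0.01, with 0 of 5 myopia libraries closest to its own number). Whether equal numbers share a litter, a day or a batch is not given, and these correlations cannot settle it. Leaving out each library in turn gave 10133 to 10854 genes and 8 to 9 members. Without control 2 and myopia 2, chosen after the values were seen, Cryaa was at -3.39, CRYBB2 at -4.86, Crybb3 at -4.12 and CRYBB1 at -0.87 (adjusted p = 0.156, within 0.0101 to 0.481 over its alternatives). Depth limits Cryba1, CRYBB1, CRYBB2, Crybb3 and Lim2, which had fewer than 5 myopia libraries over 3 reads.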
